A study of Mus musculus with 3 samples.

Results

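The clustered histone genes are the copies of the linker histone H1 and of the core histones H2A, H2B, H3 and H4 that mouse chromosomes carry mostly in groups. They were taken by symbol, as H1f1 to H1f5 and every symbol that starts with H2ac, H2bc, H3c or H4c and a digit. Of the 67 symbols that match, 62 reached 10 unique molecular identifiers (UMIs, each standing for 1 captured RNA molecule) over the 3 libraries, out of 33696 genes in the count tables. H4c17, H2ac1, H2ac19, H2bc1 and H2bc23 did not reach that minimum, and 58 of the 62 reached 200 UMIs. The 62 include H2bc26-ps, whose symbol marks a pseudogene and which is counted with H2B. The libraries are single-cell RNA-seq of Thy1.1+CD8+ pmel T cells, which carry a transgenic receptor for the melanoma antigen gp100, sorted alive from B16F10 melanomas in irradiated C57BL/6 mice at day 18 after tumor injection. Before transfer the cells of each group had been preconditioned with 10 nM cytokine over 6 days, with gp100 named only for the first part of that culture. The sIL-2 group was cultured with sIL-2 (super IL-2, an engineered IL-2) and its mice were then injected with sIL-2. In the IL-2/21-Trikine group both the culture and the injections used the Trikine, 1 engineered protein built to engage the receptors of IL-2 and IL-21. For the sIL-2 + IL-21 group the culture held both cytokines, while its mice, too, were injected with sIL-2 and no IL-21. Each regimen had 4 doses of 2.5 µg, 48 h apart. There is 1 library per group, how many mice each library holds is not given in the sources used here, and no test between groups is possible: every interval below covers counting error in these libraries only. All comparisons between libraries share libraries with each other. Where 3 values stand together, the first is that of sIL-2, the next that of IL-2/21-Trikine and the last that of sIL-2 + IL-21.

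Replication-dependent histone genes are transcribed mainly in S phase, when new DNA must be packed into nucleosomes. The H1 proteins bind the linker DNA, and H2A, H2B, H3 and H4 form the core particle. Most of these mRNAs have no introns and end in a conserved stem-loop bound by SLBP in place of a poly(A) tail, and they are degraded when replication stops. Some copies can also yield polyadenylated mRNA outside S phase. The libraries were made with a 3' kit that primes on poly(A), so a level here is that of the histone RNA this priming captured and need not follow the total.

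The stem-loop is shown because it is a feature that most members share. It was searched in the GENCODE M21 transcripts (build GRCm38, not the build of the counts) as 6 paired bases, a loop of 4 bases and the matching 6 bases. The stem had to read GG, then 3 bases of C or T, then T, and the loop had to hold T at positions 1 and 3. It was found in 43 of the 62 members (69.4%), searched in all their transcripts. Among all 21901 protein-coding genes, searched in the longest protein-coding transcript only, 51 held it (0.233%). The most frequent form of its 16 bases was present in 25 members. The other 19 include models such as H1f5, H1f1 and H3c10 that hold no match, which says only that these letters are not in those transcripts. For 6 members that the results turn on, the stem-loop is printed 5' to 3' in capitals with 5 bases (or what the model holds) on each side:
H1f4, chr13:23621777-23621802, minus strand: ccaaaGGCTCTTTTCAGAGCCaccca
H4c4, chr13:23581945-23581970, plus strand: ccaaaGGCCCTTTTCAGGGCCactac
H3c3, chr13:23745042-23745067, minus strand: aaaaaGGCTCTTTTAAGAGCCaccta
H1f2, chr13:23739507-23739532, plus strand: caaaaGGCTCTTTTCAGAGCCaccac
H2ac24, chr13:21833026-21833049, minus strand: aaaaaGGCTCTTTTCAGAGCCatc
H2bc27, chr11:58949344-58949369, plus strand: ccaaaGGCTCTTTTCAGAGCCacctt
The annotated transcript runs on past the stem-loop by 1153 bases in H1f4, 770 in H4c4 and 840 in H1f2, but by 74 in H3c3 and 3 in H2ac24. Over all members, 22 models continued for more than 100 bases and 21 for at most 100. The mean level over the 3 libraries had a median of 6.26 counts per 1000000 UMIs (CPM) in the former and 3.17 in the latter, with ranges that overlap (0.134 to 211 and 0.154 to 109 CPM). In the genome, 49 members lie on chromosome 13 and hold 93.6% of all member UMIs, 9 lie on chromosome 3, 3 on chromosome 11 and 1, H4c16, on chromosome 6.

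Promoters are shown for 4 members of unlike behaviour below, from 130 bases before to 20 bases after the RefSeq start (build GRCm38.p6). Capitals mark the CCAAT box, the TATA box with the letters TATAAA, the octamer ATTTGCAT and, as the H1 box, AAACACA, searched on both strands and not overlapping here:
H1f5, chr13:21780606-21780755, minus strand: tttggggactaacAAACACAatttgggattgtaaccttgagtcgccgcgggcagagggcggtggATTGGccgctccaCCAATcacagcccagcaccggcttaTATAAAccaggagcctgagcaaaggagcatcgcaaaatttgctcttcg
H1f2, chr13:23738677-23738826, plus strand: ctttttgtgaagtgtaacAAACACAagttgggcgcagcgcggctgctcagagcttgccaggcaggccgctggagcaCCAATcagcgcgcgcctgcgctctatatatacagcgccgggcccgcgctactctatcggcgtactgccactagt
H3c3, chr13:23745502-23745651, minus strand: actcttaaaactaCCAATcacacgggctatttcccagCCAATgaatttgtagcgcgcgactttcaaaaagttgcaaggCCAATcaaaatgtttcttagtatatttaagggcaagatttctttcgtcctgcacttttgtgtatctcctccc
H4c9, chr13:22041343-22041492, minus strand: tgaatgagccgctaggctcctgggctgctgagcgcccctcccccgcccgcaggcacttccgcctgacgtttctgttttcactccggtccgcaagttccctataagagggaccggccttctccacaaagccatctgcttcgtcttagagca
Of 52 members with a promoter of 300 bases in the table, 45 held CCAAT (86.5%, against 37.9% of all 27025 promoters), 31 held TATAAA (59.6% against 14.2%) and 10 the octamer (19.2% against 1.75%). CCAAT was present in each of the 5 H1, 15 H2A, 12 H2B and 10 H3 promoters but in 3 of the 10 H4 promoters. The octamer was found in 5 H2A and 5 H2B promoters and in no H1, H3 or H4 promoter, and AAACACA in 4 of the 5 H1 promoters against 7.14% of all. H1f5 and H1f2, which differ below, both hold CCAAT and AAACACA, while TATAAA was found in H1f5 and not in H1f2.

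Between 7760 and 13299 cells per library passed the limits on UMIs and mitochondrial RNA, with 130200802 to 168041089 UMIs in all and a median of 10254 to 14056 per cell. The 6 T cell markers (Cd3e, Cd3d, Cd8a, Cd8b1, Thy1 and Trac) summed to 2740 to 3531 CPM, melanoma markers to 2.52 to 9.47 CPM, B cell markers to at most 0.138 CPM and NK markers to at most 8.60 CPM. Of 113 to 187 CPM over 8 myeloid markers, Cst3 alone gave 104 to 182 CPM, and Lyz2, Csf1r, C1qa and C1qb were each at 5.4 CPM or less. Hemoglobin genes reached 68.7 CPM in the sIL-2 library and under 0.5 CPM in the others. In the IL-2/21-Trikine library 13.3% of cells held under 2000 UMIs, against 3.43% and 3.72%. Libraries shared 18 to 41 cell barcodes, at most 0.418% of a library.

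Histone RNA was lowest in the sIL-2 library, intermediate in the IL-2/21-Trikine library and highest in the sIL-2 + IL-21 library. The 62 genes summed to 1056 CPM (95% interval 1050 to 1061), 1218 CPM (1212 to 1223) and 1493 CPM (1487 to 1499). The log2 ratio was 0.21 for IL-2/21-Trikine over sIL-2, -0.29 for IL-2/21-Trikine over sIL-2 + IL-21 and 0.50 for sIL-2 + IL-21 over sIL-2, with counting intervals no wider than 0.02. Where every cell was given the same weight these values were 0.43, -0.17 and 0.60, and without cells that held 5 UMIs of myeloid and melanoma markers (mostly Cst3) the first was 0.38. The cells left out there were 11.6%, 7.43% and 21.7% of the 3 libraries. They were deep, with medians of 32592, 26968 and 28339 UMIs against 10254 to 14056 over all kept cells.

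All 5 families had this order (the plot of family sums), but not by the same amount. H1, with 5 genes, held 46.4% of the UMIs and rose from 497 to 567 and 687 CPM. The H3 family, 12 genes, was set apart by how far sIL-2 lay below the other libraries on the log2 scale. It stood at 109 CPM in sIL-2, 163 CPM in IL-2/21-Trikine and 179 CPM in sIL-2 + IL-21. Its log2 ratios over sIL-2 were the highest of the 5 families. They were 0.58 (interval 0.55 to 0.61) in the Trikine library, against 0.71 (0.69 to 0.74) in that of sIL-2 + IL-21. H2A, 16 genes, stood at 191, 194 and 254 CPM, so that IL-2/21-Trikine and sIL-2 were nearly level there (log2 0.03, interval 0.00 to 0.05). H2B, 17 genes and the family with the fewest UMIs, measured 84.3, 93.0 and 121 CPM. H4, 12 genes, measured 175, 200.3 and 252 CPM.

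**Figure D1:**
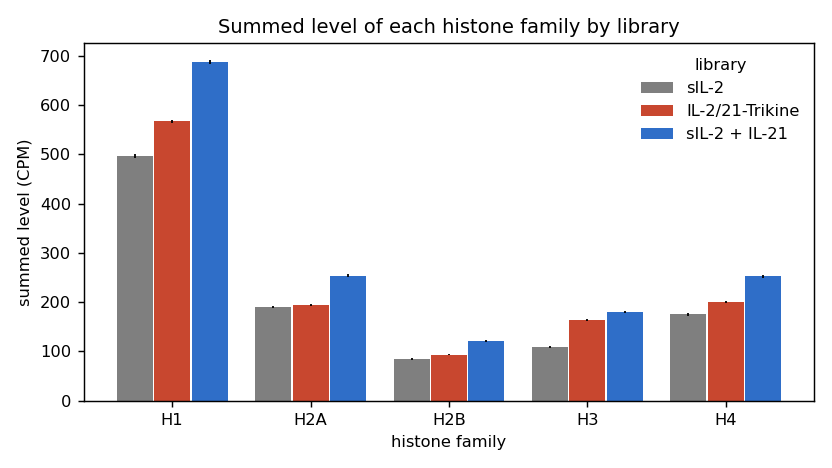
Summed level of each histone family in counts per 1000000 UMIs for the 3 libraries (bars, 1 library each), with 95% counting intervals. H1 was the largest family in every library (497, 567 and 687 CPM), and H3 had the highest log2 ratio of IL-2/21-Trikine (163 CPM) over sIL-2 (109 CPM), at 0.58.

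A few members carried most of the RNA: 19 reached 10 CPM in at least 1 library and are given here. H1f5, a linker histone and the member with the most UMIs (112204), measured 180.5, 227 and 303 CPM. H1f4, the next, measured 185, 209 and 239 CPM. H1f2 went the other way, with 84.7, 73.3 and 76.6 CPM. It was thus the linker histone of the 5 that was highest in sIL-2. H1f3 measured 32.5, 42.3 and 45.5 CPM. H1f1 measured 13.6, 15.5 and 22.8 CPM, and like H1f5 it was highest in sIL-2 + IL-21.

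Among the core histones, H4c4 led with 127, 139.9 and 161 CPM. H3c3, the main H3 gene here, measured 76.6, 118 and 131 CPM. H4c9 measured 26.6, 35.8 and 64.7 CPM, and of the 19 it had the highest log2 ratio of sIL-2 + IL-21 over sIL-2 (1.28). In these 3 genes sIL-2 was lowest and sIL-2 + IL-21 highest, but the middle library lay near the top for H3c3 and near the bottom for H4c9. H2ac8 measured 56.1, 59.5 and 81.6 CPM. H2ac20 measured 31.8, 40.8 and 47.5 CPM. H2ac24 broke the pattern, with 42.4, 26.2 and 42.3 CPM, the IL-2/21-Trikine library lying well under the other two.

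H2bc4, which in GENCODE M21 has a spliced model with no stem-loop, likewise was lowest in IL-2/21-Trikine, with 26.1, 21.6 and 33.2 CPM. H2ac4 hardly moved, at 17.7, 17.0 and 19.3 CPM. H3c6 measured 13.4, 17.6 and 19.2 CPM. H2bc6 was nearly level between the Trikine library and that of sIL-2 + IL-21, at 11.9, 14.1 and 13.9 CPM. H2bc11 measured 8.52, 10.1 and 15.3 CPM. H2bc27 measured 8.20, 8.52 and 13.6 CPM. Both of these H2B genes stood high in sIL-2 + IL-21 alone. H2bc18 measured 7.48, 9.92 and 10.8 CPM. H2ac22 measured 6.60, 8.34 and 11.6 CPM. The remaining 43 members lay between 0.0614 and 9.69 CPM.

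**Figure D2:**
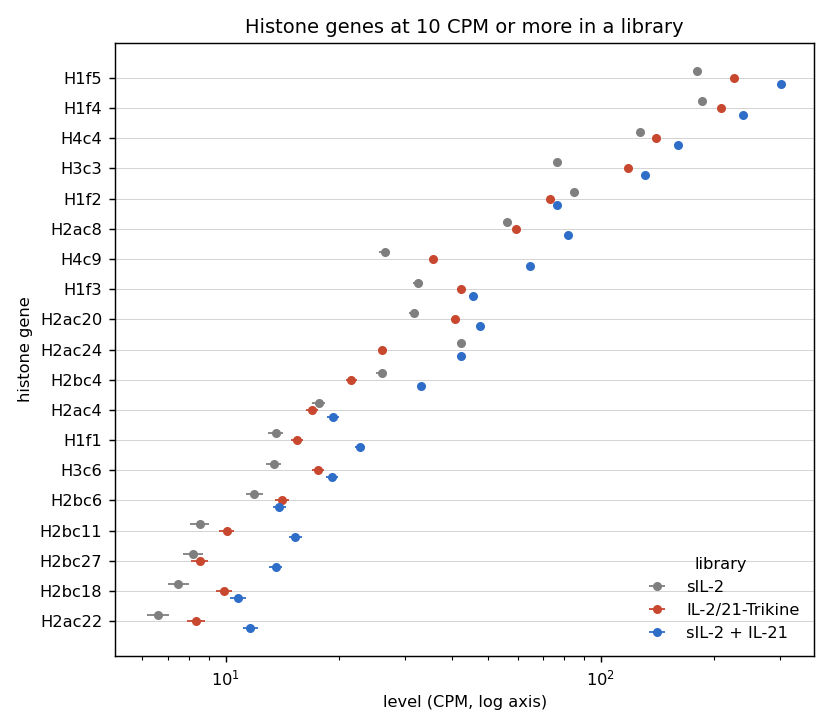
Level of the 19 histone genes that reached 10 CPM in at least 1 library (log axis, 95% counting intervals, 1 point per library). The sIL-2 point is the leftmost for most genes, with H1f2, H2ac24, H2bc4 and H2ac4 as exceptions.

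Counted by size, with a log2 ratio of 0.5 or more called past the limit, the histone genes stood out from other genes most in the comparison of sIL-2 + IL-21 with sIL-2. There 35 of the 58 members with at least 200 UMIs were past it and higher, and 0 were lower. Over all 12615 genes with that many UMIs the shares were 8.24% higher and 12.3% lower. The members' median log2 ratio was 0.57, against -0.08 for all genes. This was not particular to histone genes. Of the cell cycle genes listed further below, 16 of 22 S phase genes and 19 of 22 mitotic genes were past the limit and higher here. In IL-2/21-Trikine over sIL-2 these were 16 and 10. For IL-2/21-Trikine over sIL-2, 17 members were past the limit and higher (4.16% of all genes) and 1, H2ac24, was lower (8.69% of all genes), with a median of 0.31 against -0.09. For IL-2/21-Trikine over sIL-2 + IL-21, 0 members were higher (5.84% of all genes) and 9 were lower (7.17% of all genes), among them H1f1, H4c9, H2bc4 and H2ac24, with a median of -0.21 against 0.00. With genes of at least 1000 UMIs alone, 21 members were higher in the first of these comparisons and 7 in the second. These counts are out of fewer members than the 58, and the share of all genes at that minimum was not computed.

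The extremes mixed abundant and scarce members. In IL-2/21-Trikine over sIL-2 the highest were H3c10 (0.445 against 1.14 CPM, log2 1.35, interval 0.92 to 1.80), H3c1 (2.33 against 5.28 CPM, log2 1.18) and H4c6 (log2 1.10), and the lowest were H2ac24 (-0.70, interval -0.75 to -0.64), H2ac6 (-0.42) and H2bc4 (-0.27). In IL-2/21-Trikine over sIL-2 + IL-21 the highest were H4c16 (0.43), H3c1 (0.33) and H2ac10 (0.25), and the lowest H4c9 (-0.85, interval -0.90 to -0.81), H2bc24 (-0.84) and H2ac24 (-0.69). In sIL-2 + IL-21 over sIL-2 the highest were H3c10 (1.33), H4c9 (1.28) and H4c6 (1.25), and the lowest H4c16 (-0.28), H1f2 (-0.15) and H2ac6 (-0.09).

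Ratios of single copies have a limit that depends on sequence. Windows of 90 bases in a member's transcript were found in the transcript of another member for 56 of the 62, and for 21 of them over 50% of the windows were shared. The share was 93.2% for H3c10 and 92.4% for H2ac24, so their counts rest on a small part of the gene and stay uncertain. It was 0% for H1f5 and H1f1, 0.858% for H4c4, 5.71% for H1f2 and 17.4% for H4c9. Other members read above lay in between, with 26.1% for H2bc4, 26.2% for H1f4, 31.6% for H3c3, 31.9% for H2ac8 and 33.7% for H3c1. The model of H2bc6 shares sequence with H1f4 as well as with other H2B genes.

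To place histone RNA in the cell cycle, each cell was thinned to 2000 UMIs and classed by Mcm2 to Mcm7, subunits of the replicative helicase that are loaded before S phase, and by Ccnb1, the cyclin B1 of G2 and mitosis. Mcm-high cells had at least 3 Mcm UMIs and 0 Ccnb1 UMIs, Ccnb1 cells at most 2 Mcm UMIs and at least 1 Ccnb1 UMI, and cells with neither at most 2 and 0. There were 185, 567 and 493 Mcm-high cells and 119, 275 and 340 Ccnb1 cells in the 3 libraries. Cells with both were few, at 8, 20 and 34. Levels were then taken from all counts of the cells in a class.

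Histone RNA was higher in Mcm-high cells than in cells with neither, and higher again in Ccnb1 cells, in each library. In sIL-2 the summed level was 920.2 CPM in cells with neither, 2400.4 CPM in Mcm-high cells and 3070 CPM in Ccnb1 cells, in IL-2/21-Trikine 1070 CPM, 1993 CPM and 3001 CPM, and in sIL-2 + IL-21 1341 CPM, 2368 CPM and 2700 CPM. The log2 ratio of Mcm-high over neither was 1.38 (interval 1.36 to 1.41), 0.90 (0.88 to 0.92) and 0.82 (0.80 to 0.84), and that of Ccnb1 over Mcm-high 0.35, 0.59 and 0.19. Past a log2 ratio of 1 for Mcm-high over neither were 38, 18 and 8 of 58 members, against 5.09%, 2.77% and 1.21% of all genes. Lower by as much in Ccnb1 than in Mcm-high cells were 0, 0 and 1 members (H4c11, with 238 UMIs in all), against 5.71%, 4.67% and 3.09% of all genes. The MCM genes themselves fell between those classes by a median of 1.41, 1.16 and 0.86 on the log2 scale, which classing by these same genes fixed beforehand. The 22 other S phase genes described below were not used for the classes. Their median log2 ratios of Ccnb1 over Mcm-high were -0.86, -0.54 and -0.53, against 0.44, 0.61 and 0.25 for the histone genes.

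By summed level, the libraries stood in another order among Mcm-high cells than as wholes, with IL-2/21-Trikine lowest. In them the log2 ratio was -0.27 for IL-2/21-Trikine over sIL-2, -0.25 for IL-2/21-Trikine over sIL-2 + IL-21 and -0.02 (interval -0.05 to 0.01) for sIL-2 + IL-21 over sIL-2. With the longer lists of S phase and mitotic genes described below in place of Mcm and Ccnb1, the values were -0.47, -0.80 and 0.33, and with cells thinned to 5000 UMIs -0.56, -0.46 and -0.10. In cells with neither, by contrast, the order was that of the whole libraries, with 0.22, -0.33 and 0.54. Melanoma markers summed to 71.5 CPM in the Mcm-high cells of IL-2/21-Trikine and to 2.26 and 2.23 CPM in the others. Without cells that held 5 UMIs of these markers, 1 of them Mcm-high, the ratios were -0.26, -0.24 and -0.02. The median member moved less than the sum in both pairs with IL-2/21-Trikine, and in the last pair it had the opposite sign to the sum. Member medians among Mcm-high cells were -0.04, -0.09 and 0.12, with the pairs ordered as above. All genes had medians of -0.07, 0.01 and -0.08 there. A typical member thus was not lower in the Trikine library than in that of sIL-2 when set beside all genes.

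Members did not share the rise from neither to Mcm-high cells to the same degree (the plot of members across classes). H1f1 rose most from neither to Mcm-high, with a mean log2 ratio of 1.49 over the libraries: from 11.1 to 43.2 CPM in sIL-2, 13.1 to 32.3 CPM in IL-2/21-Trikine and 19.8 to 45.5 CPM in sIL-2 + IL-21. H3c1 (1.48) and H1f5 (1.35) followed. H1f1 and H3c1 also were among the 7 of 58 members whose mean ratio of Ccnb1 over Mcm-high was below 0, at -0.04 and -0.22. Over all genes the median of that ratio was -0.03, -0.02 and -0.02 in the 3 libraries, so H1f1 lay near it. The share of all genes below 0 was not computed. At the other end were H2ac25 (-0.12), H2bc27 (-0.11) and H4c16 (0.03), which lie on chromosome 11 (the first pair) and 6. H2bc4 (0.05) and H1f2 (0.31) came next, named after their values were seen. H2bc4 measured 25.1 and 26.8 CPM in sIL-2, 20.4 and 19.9 CPM in IL-2/21-Trikine and 32.2 and 34.6 CPM in sIL-2 + IL-21 in cells with neither and in Mcm-high cells, so the classes were nearly level. In Ccnb1 cells it stood at 53.1, 50.4 and 47.96 CPM, above both in each library. H2bc27 was likewise highest in Ccnb1 cells, at 13.7, 18.2 and 21.8 CPM against 7.17, 5.94 and 16.4 CPM in Mcm-high cells.

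The annotated models of these 5 run past the stem-loop by 1643 bases in H2ac25, 169 in H2bc27, 2445 in H4c16 and 840 in H1f2, with no stem-loop in the spliced model of H2bc4. Of all 62 members, 22 models run on for more than 100 bases and 19 hold no stem-loop, and whether either trait bears on the ratios was not tested. Several of the models without a stem-loop are short, such as H4c12 (312 bases) and H3c10 (411 bases), against 1156 bases in the spliced H2bc4. The median log2 ratio of Mcm-high over neither was 0.78 over the 20 members with at least 200 UMIs and over 100 bases after the stem-loop, 1.10 over the 20 with at most 100 bases and 1.06 over the 18 without a stem-loop. Among the long models, H1f4 (1153 bases) had ratios of 1.18, 0.86 and 0.82 and H4c4 (770 bases) of 1.34, 0.83 and 0.83.

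**Figure D3:**
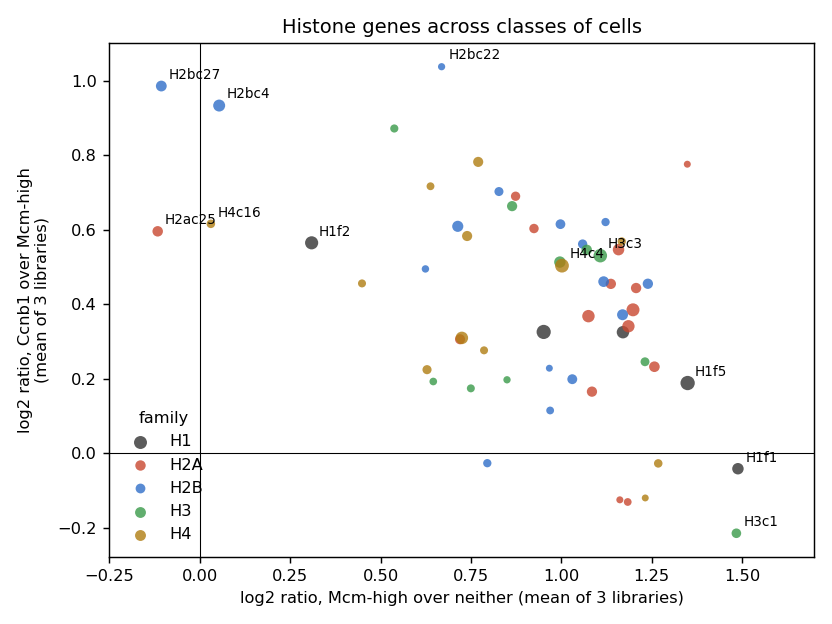
Each point is 1 of 58 histone genes with at least 200 UMIs, its area growing with its UMIs: mean log2 ratio over the 3 libraries of Mcm-high over neither cells (x axis) and of Ccnb1 over Mcm-high cells (y axis). H2ac25, H2bc27, H4c16, H2bc4 and H1f2 lie at the left, while H1f1 and H3c1 lie at the lower right.

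At 2000 UMIs these classes miss many cycling cells, and cells with neither held 77.5% to 80.5% of the histone UMIs. A finer division, chosen after the data were seen, sorted the same thinned cells by 22 other S phase genes (Pcna, Tyms, Rrm2, Cdc6 and others) and 22 other mitotic genes (Top2a, Cdk1, Plk1, Aurkb and others, of which several are made from late S phase on). Histone RNA was highest where both lists were high. Cells without a UMI of either list measured 282, 247 and 243 CPM in the 3 libraries. Cells with 3 to 5 S phase UMIs but no mitotic UMI measured 285, 304 and 492 CPM, which was near that level in sIL-2 and above it in the other libraries. With 6 or more S phase UMIs and no mitotic UMI, in 38, 109 and 72 cells, the level was 1168, 621 and 762 CPM. With 6 or more of each list the level was 5201, 4040 and 4126 CPM. With 6 or more mitotic UMIs but none of the S phase list it was 2076, 1341 and 1627 CPM. Cells with at least 3 UMIs of both lists were 7.43%, 15.5% and 21.0% of the cells and held 54.3%, 66.1% and 66.8% of the histone UMIs. The level of 243 to 282 CPM in cells without either list may include free RNA of the droplets, whose part was not tested.

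**Figure D4:**
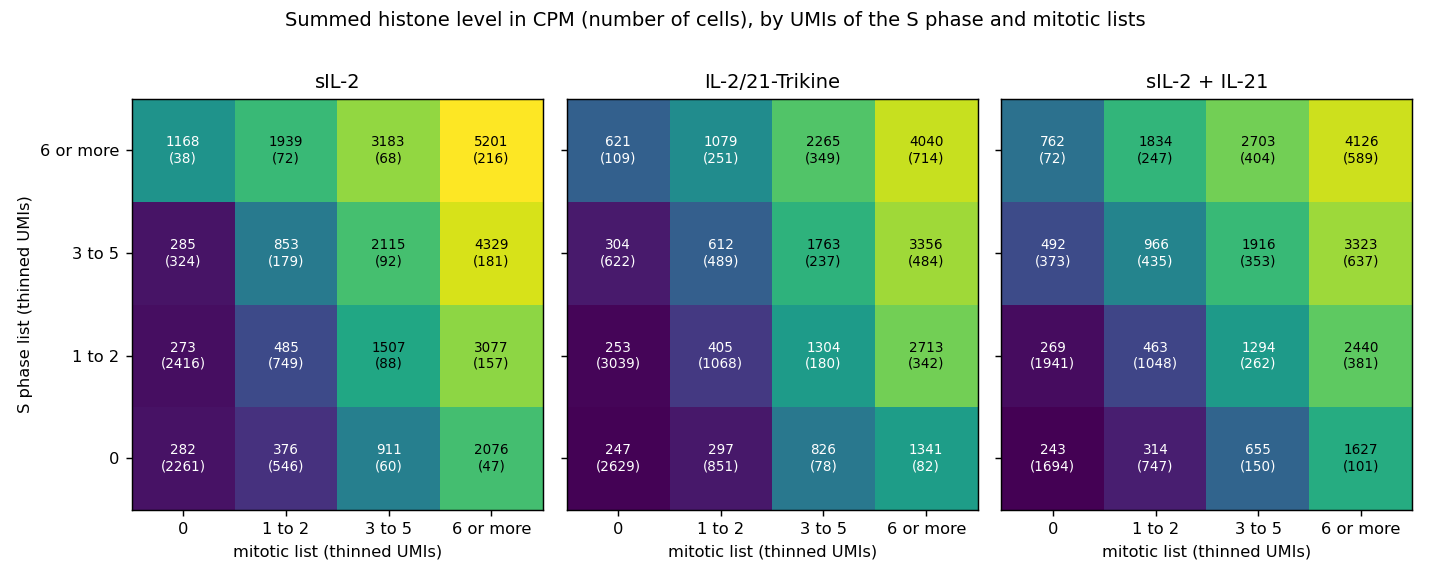
Summed histone level in CPM (color on a log scale, value printed, number of cells in brackets) for cells binned by thinned UMIs of the mitotic list (x axis) and of the S phase list (y axis), 1 panel per library. The level rises to the right and, beyond the column without mitotic UMIs, upward, from 243 to 282 CPM at the lower left to 4040 to 5201 CPM at the upper right.

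Of the 58 members, 56 had their highest mean level in cells with at least 3 UMIs of both lists. The exceptions were H2bc4 and H2bc27, which were highest in cells of the mitotic list alone. The same count was not made over all genes, so how far it sets the members apart is not known. H1f5 went from 6.86, 8.06 and 6.07 CPM in cells of neither list to 885, 685 and 709 CPM in cells of both, a mean log2 ratio of 6.76. H3c3 went from 2.83, 4.69 and 9.88 CPM to 349.8, 342 and 286 CPM. H1f2 went only from 62.2, 48.4 and 42.9 CPM to 183, 132 and 119 CPM (1.49). The ratio of H1f2 was the smaller of these in every library. H2ac25 changed least, from 6.23, 7.17 and 5.97 CPM to 8.53, 8.23 and 15.4 CPM (0.67).

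Within these bins the order of the libraries turned. The sIL-2 library was the highest of the 3 in 14 of the 16 bins, sIL-2 + IL-21 in 2 and IL-2/21-Trikine in 0. The smallest bin held 38 cells. When all libraries were given the same makeup over the 16 bins, the summed level was 1465 CPM in sIL-2, 1155 CPM in IL-2/21-Trikine and 1228 CPM in sIL-2 + IL-21, from 1057, 1213 and 1494 CPM as measured in the same cells. The log2 ratio over sIL-2 went from 0.20 to -0.34 for IL-2/21-Trikine and from 0.50 to -0.25 for sIL-2 + IL-21. That of IL-2/21-Trikine over sIL-2 + IL-21 went from -0.30 to -0.09. In the thinned counts themselves, where all cells have the same depth, the ratios over sIL-2 at equal makeup were -0.35 and -0.30. With the coarser classes of Mcm and Ccnb1 the equal makeup left 0.13 and 0.40. The 2 divisions differ in both their genes and their number of bins. The longer lists, each split at 3 UMIs, give as many classes as Mcm and Ccnb1. Levels there were 317, 281 and 311 CPM with neither list and 827, 595 and 1038 CPM with the S phase list only. With both lists they were 4075, 3164 and 3124 CPM, and with the mitotic list only 2315, 2061 and 1800 CPM. So sIL-2 was highest in all of these classes but that of the S phase list only. No equal makeup was computed over them, and what the turn depends on was not tested. In the bin of 6 or more UMIs of each list, which has no upper limit, mitotic UMIs averaged 11.1 per cell in sIL-2, 10.52 in IL-2/21-Trikine and 9.80 in sIL-2 + IL-21. S phase UMIs averaged 8.37, 8.71 and 8.07 there, with IL-2/21-Trikine highest. Cells of sIL-2 were also the deepest in most bins. With 3 to 5 UMIs of each list, the median depth was 31517.5, 22126 and 27170 UMIs. With 3 to 5 S phase UMIs and 0 mitotic UMIs it was 13652.5, 12350 and 15217 UMIs, deepest in sIL-2 + IL-21, which also had the highest histone level there. Whether differences in depth or in these averages bear on the turn was not tested.

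**Figure D5:**
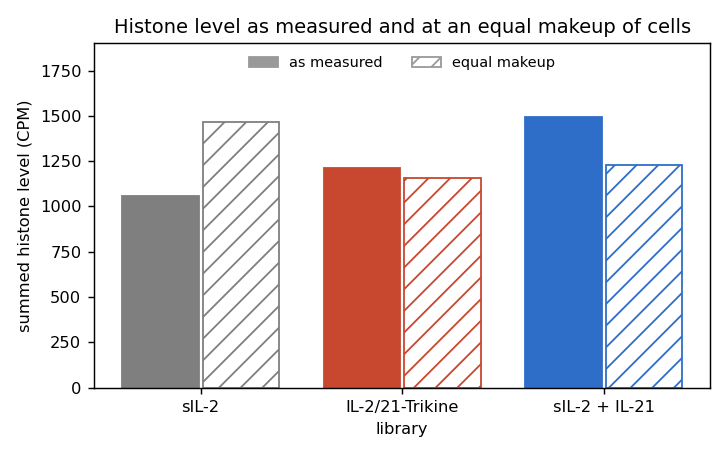
Summed histone level in CPM per library (filled bars: as measured in cells of at least 2000 UMIs; hatched bars: with the mean shares of UMIs of the 3 libraries over the 16 bins of S phase and mitotic UMIs). As measured, sIL-2 is lowest with 1057 CPM, and at equal makeup it is highest with 1465 CPM.

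Histone RNA was concentrated in few cells. After thinning, cells with 10 or more histone UMIs were 3.84%, 4.69% and 6.05% of the cells in the 3 libraries. They held 43.9%, 34.8% and 31.1% of the unthinned histone UMIs. These cells were deep, with medians of 29140, 21246 and 23339 UMIs against 13358.5, 11600.5 and 14556 over all thinned cells. Cells with none after thinning were 53.6%, 51.0% and 46.0% and held 9.29%, 7.20% and 5.76% of the unthinned histone UMIs. Between cells with at least 3 histone UMIs and cells with none, the gene that differed most outside the histone genes was Esco2, which acetylates cohesin in S phase, with a mean log2 ratio of 4.42 (1 CPM added to both sides). It was followed by Neil3, a DNA glycosylase (4.01), Fbxo5, an inhibitor of the anaphase-promoting complex (3.95), the repressor E2f8 (3.84) and Nusap1 (3.82). The rest of the 20 leading genes were Pbk, Mxd3, Shcbp1, Kif4, Kif11, Rrm2, Mki67, Aurkb, Spc25, Knl1, Nuf2, Ckap2l, Prc1, Lrr1 and Bub1. In this list 4 genes came from the mitotic list (Nusap1, Kif11, Aurkb and Bub1), 1 from the S phase list (Rrm2) and none was an Mcm gene. Esco2 measured 59.9 and 78.7 CPM in the histone-rich cells of sIL-2 and IL-2/21-Trikine against 1.02 and 3.503 CPM in cells with no histone UMI after thinning.

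Other genes of the histone pathway were read against the same shares of all genes, which for sIL-2 + IL-21 over sIL-2 were 8.24% higher and 12.3% lower. Of 14 measured genes for the synthesis and processing of histone mRNA, 0 were past a log2 ratio of 0.5 in any pair. Slbp, which binds the stem-loop, measured 120.5, 157 and 151 CPM, and Casp8ap2, a factor of the histone locus body, 61.0, 71.1 and 73.9 CPM. In sIL-2 + IL-21 over sIL-2, 5 of 16 histone chaperones and acetyltransferases were higher, among them Asf1b (23.9 to 48.05 CPM) and Chaf1a (10.6 to 18.9 CPM), and Daxx was lower (29.3 to 18.0 CPM). Of 10 variant histones with enough UMIs, most of which are made independently of replication and polyadenylated, 3 were past the limit and higher in that pair: H1f0 (33.7 to 68.8 CPM), H1f10 (1.29 to 4.92 CPM) and H2az1 (881 to 1407 CPM). H3f3a and H3f3b, which encode the replacement histone H3.3, stood at 884 to 1019 and 1387 to 1445 CPM in the 3 libraries. The median log2 ratio of Mcm-high over neither was 0.21, 0.13 and 0.16 over the variant histones, against 1.27, 0.93 and 0.82 for the clustered genes. H1f10 and H2az1 lay well above the variant median in sIL-2. Their ratios were 2.17, 0.34 and 0.19 for H1f10, which is scarce in sIL-2 (1.29 CPM), and 0.99, 0.67 and 0.45 for H2az1. The S phase list had medians of 0.73 in IL-2/21-Trikine over sIL-2 and 0.78 in sIL-2 + IL-21 over sIL-2, and those of the mitotic list were 0.46 and 0.66.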

How the data were processed

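Per the methods and the file headers, the authors counted reads of 10x Genomics 3' libraries with Cell Ranger 9.0.0 (mouse reference GRCm39, introns included; GEO's notes name mm10) and deposited the raw UMI counts of each cell by gene, 1 library per group. No strand or paralog setting beyond the default of that tool is given in the sources used here. Cells with 500 to 120000 UMIs and at most 20% mitochondrial UMIs were kept, as in the study's methods: 30857 of 31026, which in the sIL-2 + IL-21 library was 1 cell more than the study kept. Doublets were not called. Counts were summed over cells and scaled to 1000000 UMIs (CPM). Ratios carry exact 95% intervals (Clopper-Pearson on the counts of a pair), which cover counting error only. With 1 library per group there is no replicate spread and no test, and cells were not used as replicates. Each cell with at least 2000 UMIs was thinned to 2000 by a draw without replacement with a fixed seed, to class it at equal depth. The ratio, its interval and the thinning were tested on made-up counts with known answers. Genes named are members at 10 CPM or more in any library, the 3 highest and lowest ratios, and the 20 leading genes of histone-rich cells. The members and lists were chosen with earlier results of these data known. Symplk was not matched under that symbol. Alternatives changed the cell limits, scaling, class genes, thinning depth and minimum counts. Sequences come from GENCODE M21 (by Ensembl ID, 62 of 62 members) and RefSeq (by symbol, 52 of 62), both GRCm38. Python 3.11.15, numpy 2.4.6, scipy 1.17.1, pandas 2.3.3 and matplotlib 3.10.9 were used.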

Additional observations from a re-analysis of the deposited data

Results flagged for a closer look

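Cells outside the limits on UMIs and mitochondrial RNA, which enter no comparison, held histone RNA above the level of the kept cells of their library: 1336 CPM over 45 cells in sIL-2, 1692 CPM over 51 cells in IL-2/21-Trikine and 1744 CPM over 73 cells in sIL-2 + IL-21.

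H2bc27 was the 1 member with at least 200 UMIs whose counting intervals lay on opposite sides of 0 in different libraries. Its log2 ratio of Mcm-high over neither was -0.17 (interval -0.68 to 0.29) in sIL-2, -0.50 (-0.87 to -0.15) in IL-2/21-Trikine and 0.35 (0.13 to 0.57) in sIL-2 + IL-21. With 1 library per group this difference was not tested.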

How the results depend on the processing

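Of 102 recomputed values, 51 stayed inside the counting interval (or within 1.5 times, for counts), 48 moved and 3 changed sign, and the cause was not tested. No paired analysis was possible because each group has 1 library, and for the same reason no library could be left out. Pairs are IL-2/21-Trikine over sIL-2 first, over sIL-2 + IL-21 next, and sIL-2 + IL-21 over sIL-2 last. The summed log2 ratios were 0.28 and 0.58 for the first and last pair with median-of-ratios size factors, 0.27, -0.26 and 0.53 with totals free of mitochondrial, ribosomal protein and histone genes, 0.43, -0.17 and 0.60 with equal weight of cells, 0.27, -0.38 and 0.65 without the 5% deepest cells, 0.38, -0.25 and 0.63 without cells with 5 UMIs of myeloid and melanoma markers, and 0.18, -0.26 and 0.44 without H1f5. In Mcm-high cells they were -0.22 and -0.08 for the last 2 pairs with an Mcm minimum of 5, -0.56, -0.46 and -0.10 at 5000 UMIs, -0.47, -0.80 and 0.33 with the longer lists, -0.13 and 0.14 (first and last pair) with equal weight, and -0.21, -0.22 and 0.01 without H1f5. The sign of the last pair thus changed 3 times.

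Mcm-high over neither, with sIL-2 first and sIL-2 + IL-21 last, was 0.78 in the last with a minimum of 5, 0.56 and 0.73 in the last 2 at 5000 UMIs, 1.08 and 1.74 there with the longer lists, 1.75, 1.37 and 1.29 with equal weight, and 1.24, 0.85 and 0.77 without H1f5. Ccnb1 over Mcm-high was 0.55 in IL-2/21-Trikine with a minimum of 5, 0.51 in sIL-2 at 5000 UMIs, 1.49, 1.79 and 0.79 with the longer lists, 0.53 in sIL-2 and 0.13 in sIL-2 + IL-21 with equal weight, and 0.46 in sIL-2 without H1f5. With at least 1000 UMIs per gene, 7 members in place of 17 were past the limit and higher in IL-2/21-Trikine over sIL-2. In sIL-2 + IL-21 over sIL-2 there were 21 in place of 35. Fewer members have that many UMIs, so these counts have a smaller base. Leaving out cells under 2000 UMIs or with melanoma markers, chosen after seeing the data, moved no value out of its interval.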

Other observations

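Cells under 2000 UMIs held more histone RNA in the IL-2/21-Trikine library than in the others, at 1682 CPM (interval 1621 to 1745) over 1775 cells against 687 CPM over 266 cells in sIL-2 and 767 CPM over 364 cells in sIL-2 + IL-21. The S phase list summed to 1643, 1151 and 1603 CPM in these cells and the mitotic list to 1807, 1275 and 1609 CPM, with libraries in the same order. In sIL-2 + IL-21 the shallow cells thus had cycle genes near the level of IL-2/21-Trikine but not its histone level.

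The replication-independent linker histones H1f0 and H1f10 had the highest log2 ratios of sIL-2 + IL-21 over sIL-2 (1.03 and 1.93) among the 10 variant genes with at least 200 UMIs. H1f0, a linker histone known from resting and differentiated cells, measured 33.7 CPM in sIL-2, 28.9 CPM in IL-2/21-Trikine and 68.8 CPM in sIL-2 + IL-21, and its log2 ratio of Mcm-high over neither was -0.08, -0.05 and 0.28. H1f10 measured 1.29, 1.92 and 4.92 CPM. H2ax, which marks broken DNA when phosphorylated, and the centromeric H3 variant Cenpa were higher in Ccnb1 than in Mcm-high cells in each library, by log2 ratios of 1.60, 1.26 and 0.79 and of 1.48, 1.43 and 0.92.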
